A study of Homo sapiens with 22 samples.

Results

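The genes described here are the axon guidance receptors and ligands of the ephrin and Slit-Robo systems, together with the srGAP proteins that act below Robo receptors. They were taken by gene symbol, as every EPHA, EPHB, EFNA, EFNB, ROBO and SLIT gene and SRGAP1 to SRGAP3, which gave 29 of the 34679 genes in the table. Of these, 27 had enough counts to be among the 16601 genes tested. EPHA8 (28 counts in all libraries together) and EPHB6 (3 counts) were listed but not tested, and EFNA2, EFNB1 and EFNB3 were not analysed here. The cells were LUHMES, a human mesencephalic line that can be differentiated into post-mitotic neurons, and polyadenylated RNA was sequenced from 22 libraries in 6 groups. Differentiated cells that overexpressed alpha-synuclein and received 6-hydroxydopamine (6-OHDA), an oxidisable dopamine analogue toxic to catecholamine neurons, were given quercetin (3 libraries), rutin (3 libraries) or neither (4 libraries). The remaining groups, of 4 libraries each, were untreated alpha-synuclein cells, 6-OHDA-treated wild-type cells and untreated wild-type cells, so every compound library carries both alpha-synuclein and 6-OHDA. The design text names 6-OHDA and alpha-synuclein as the means of building cell models of Parkinson disease, and the compounds were given to test protection. The labels state no dose, no exposure time, no vector or promoter for alpha-synuclein, and not whether the cells are 1 clone or whether libraries of a group come from separate cultures, so p-values measure the spread between these libraries, which may be technical.

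Eph receptors are receptor tyrosine kinases that bind ephrins on neighbouring cells. Ephrin-A ligands are held by a lipid anchor and ephrin-B ligands span the membrane, so signals can pass into the receptor-bearing cell and back into the ligand-bearing one. Slits are secreted ligands of the Robo receptors, which steer growing axons mostly by repulsion, and srGAPs bind the Robo tail and act on the cytoskeleton. In the rodent midbrain, members of these families guide dopaminergic axons towards the striatum.

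The promoters of 5 members whose transcripts changed with 6-OHDA in both genotypes are printed here, 4 of genes that fell (SRGAP1, SRGAP3, SLIT1 and EPHA3) and 1 of a gene that rose (EFNB2). They were chosen after the values were seen, from members for which RefSeq gives a single window, which runs from 250 bases before to 50 bases after the annotated start (GRCh38.p14, sequences from RefSeq). RefSeq windows were found for 28 of the 29 members, 38 windows in all. The positions are chr12:63844450-63844749 (plus strand), chr3:9249597-9249896 (minus strand), chr10:97185910-97186209 (minus strand), chr3:89107371-89107670 (plus strand) and chr13:106535613-106535912 (minus strand). The SRGAP3 window lies inside the longer gene span that GENCODE 29 gives. Sequences run 5′ to 3′ along the gene, and capitals mark matches, on either strand, to 6 motifs: TGANTCA (the AP-1 site), TGACNNNGC (the core of the antioxidant response element), TTGCATCA (a composite ATF4 and C/EBP site), CACGTG (the E-box), GGGCGG (the GC box) and TATAAA (the TATA box).
SRGAP1: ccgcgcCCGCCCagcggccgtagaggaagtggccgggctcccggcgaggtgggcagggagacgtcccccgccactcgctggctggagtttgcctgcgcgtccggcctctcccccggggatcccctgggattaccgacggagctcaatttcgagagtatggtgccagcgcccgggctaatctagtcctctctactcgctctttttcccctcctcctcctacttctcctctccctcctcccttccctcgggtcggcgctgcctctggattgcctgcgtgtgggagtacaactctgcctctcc
SRGAP3: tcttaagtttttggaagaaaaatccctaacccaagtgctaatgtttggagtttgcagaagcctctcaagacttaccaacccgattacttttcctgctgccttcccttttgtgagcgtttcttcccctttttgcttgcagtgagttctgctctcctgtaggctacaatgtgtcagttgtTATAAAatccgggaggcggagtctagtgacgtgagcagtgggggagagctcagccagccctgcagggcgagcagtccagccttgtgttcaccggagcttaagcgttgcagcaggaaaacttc
SLIT1: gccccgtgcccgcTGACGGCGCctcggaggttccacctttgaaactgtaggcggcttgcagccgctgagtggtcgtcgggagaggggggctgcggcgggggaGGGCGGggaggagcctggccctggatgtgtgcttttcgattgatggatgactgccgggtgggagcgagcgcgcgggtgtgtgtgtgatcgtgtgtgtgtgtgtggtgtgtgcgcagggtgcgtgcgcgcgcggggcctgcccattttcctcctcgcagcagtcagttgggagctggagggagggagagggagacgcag
EPHA3: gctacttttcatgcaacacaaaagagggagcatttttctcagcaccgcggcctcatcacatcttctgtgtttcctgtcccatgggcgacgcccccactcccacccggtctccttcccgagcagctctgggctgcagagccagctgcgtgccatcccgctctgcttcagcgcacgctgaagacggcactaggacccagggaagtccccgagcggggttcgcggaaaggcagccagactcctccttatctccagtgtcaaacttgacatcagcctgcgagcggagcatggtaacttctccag
EFNB2: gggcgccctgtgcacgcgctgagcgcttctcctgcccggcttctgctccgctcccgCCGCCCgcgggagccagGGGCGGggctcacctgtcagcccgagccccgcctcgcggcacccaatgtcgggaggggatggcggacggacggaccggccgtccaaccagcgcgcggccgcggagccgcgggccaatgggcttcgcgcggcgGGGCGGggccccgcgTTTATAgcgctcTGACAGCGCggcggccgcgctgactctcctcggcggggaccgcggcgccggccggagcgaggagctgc

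The EFNB2 window held 1 antioxidant response element core, 3 GC boxes and 1 TATA box. The SLIT1 window held 1 antioxidant response element core and 1 GC box, the SRGAP1 window 1 GC box and the SRGAP3 window 1 TATA box, and none of the 6 motifs was in the EPHA3 window. Over the members' 38 windows the AP-1 site was in 0, the antioxidant response element core in 8, the composite site in 0, the E-box in 1, the GC box in 32 and the TATA box in 3. Over all 35116 RefSeq windows of that length the shares were 7.71% for the AP-1 site, 13.3% for the antioxidant response element core, 0.866% for the composite site, 7.26% for the E-box, 45% for the GC box and 11.5% for the TATA box. Such matches are letters in a window and were not tested as binding sites.

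Libraries held 1866396 to 20667106 estimated counts, and 3 counts, taken as the floor, corresponded to 0.168 to 1.49 CPM (counts scaled to a common library size, the total after TMM scaling). Of 37 marker genes 35 were in the table. The 6 neuron markers summed to 2023 to 2239 CPM in 6-OHDA-treated wild-type cells against 6700 to 7392 CPM in untreated wild-type cells, and to 2602 to 4079 CPM in 6-OHDA-treated alpha-synuclein cells against 5684 to 7313 CPM in untreated alpha-synuclein cells. DCX, MAP2 and STMN2 carry this sum, and TUBB3 went the other way, with 170 CPM on average in 6-OHDA-treated against 110.1 CPM in untreated wild-type cells and 167 CPM in 6-OHDA-treated against 132 CPM in untreated alpha-synuclein cells. The changes with 6-OHDA below stand beside this lower sum, whose part in them was not tested, and in bulk RNA fewer cells of a type and less RNA per cell cannot be told apart. Of the dopaminergic markers, TH, the enzyme that makes L-DOPA, averaged 126 CPM in 6-OHDA-treated and 374 CPM in untreated wild-type cells, and RET averaged 39.3 and 119.6 CPM in the same groups. NR4A2 ran the other way, with 25.1 CPM in 6-OHDA-treated and 8.29 CPM in untreated wild-type cells, and SLC18A2 and DDC, for dopamine storage and synthesis, had at most 2.60 and 2.43 CPM in any library. In wild-type cells oligodendrocyte markers summed to 46.6 to 81.6 CPM with 6-OHDA against 118 to 136 CPM untreated, while SOX10 among them averaged 2.02 against 1.66 CPM. Dividing-progenitor markers summed to 4.48 to 9.68 against 21.1 to 38.2 CPM, and astrocyte markers to 15.9 to 24.2 against 10.2 to 13.8 CPM. MKI67 carries the dividing-progenitor sum. TOP2A and HES1 went the other way at low levels, averaging 1.272 against 0.6909 CPM and 1.596 against 0.1225 CPM. In the astrocyte list AQP4 went the other way, averaging 0.0188 against 0.160 CPM. The part of these sums in the results was not tested either. Markers of microglia and blood summed to at most 14.9 CPM and those of endothelium to at most 5.5 CPM in every library, and AIF1 was at 0 in both untreated groups. Those of fibroblasts and mural cells summed to 14.6 to 31.1 CPM across the libraries, with COL1A1 at up to 17.8 CPM. Replicate 4 of the 6-OHDA-treated alpha-synuclein cells stood apart from the other 3, with the highest neuron marker sum of its group (4079 CPM). Values without it are given beside the calls that it alters and beside several of the changes. The library names place untreated and 6-OHDA-treated wild-type cells and untreated alpha-synuclein cells on sequencing lane 1 and the other groups on lane 2. Lane and group therefore cannot be told apart for 6-OHDA in alpha-synuclein cells, for alpha-synuclein in 6-OHDA-treated cells or for the interaction, while the other comparisons lie within a lane.

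Per kilobase of exon, which allows genes to be compared, 3 members led in every group: ROBO1, ROBO2 and EFNB2. In untreated wild-type cells ROBO1 averaged 102.4 ± 4.18 CPM per kilobase, ROBO2 96.2 ± 4.49, EFNB2 75.1 ± 8.49, EPHB2 31.96 ± 4.02, SRGAP3 25.9 ± 1.77 and EPHA5 23.6 ± 2.19 (SD, n = 4). The libraries of ROBO1 and ROBO2 overlapped in level, as did those of SRGAP3 and EPHA5, so neither neighbour in this order is set apart from the other. These 6 members reached 10 CPM per kilobase in that group, another 10 lay between 1 and 10, and 13 lay under 1. Under 6-OHDA the order changed, and EFNB2 led with 118 ± 6.72 CPM per kilobase in treated wild-type cells, against 37.2 ± 1.92 for ROBO1 in the same libraries. EPHA5 and EPHB2 had the highest level of their Eph classes in these groups. EPHA5 made up 53.2% ± 4.29 of the summed EphA level per kilobase in 6-OHDA-treated wild-type cells and 82.7% ± 4.98 in untreated wild-type cells, and EPHB2 made up 81.8% ± 4.21 and 89.3% ± 2.79 of the EphB level in the same groups (SD, n = 4 each). With 6-OHDA and a compound, EPHA5 made up 47.6% ± 3.73 (quercetin) and 48.2% ± 3.4 (rutin) of the EphA level in alpha-synuclein cells (SD, n = 3 each). Its share was 59% ± 14.3 in alpha-synuclein cells with 6-OHDA alone and 86.4% ± 2.6 in untreated ones (SD, n = 4 each). EPHA8 and EPHB6 were under 0.1 CPM per kilobase in every group.

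**Figure D1:**
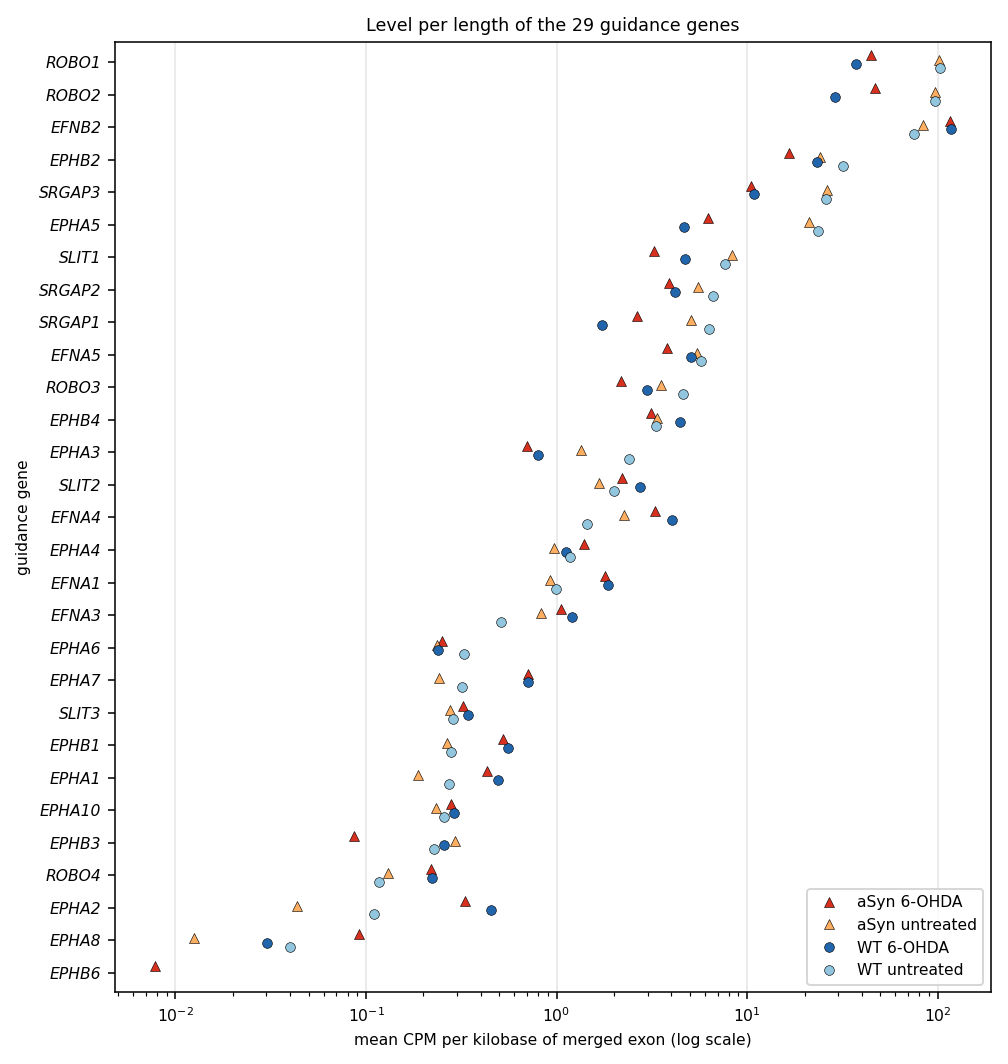
Mean CPM per kilobase of merged exon (log scale) of the 29 guidance genes in the 4 groups without a compound, ordered by their level. ROBO1, ROBO2 and EFNB2 lie at the top, and EFNB2 is further right in the 6-OHDA groups while ROBO1 and ROBO2 are further left; EPHB6, at 0 in 3 of these groups, has only 1 point.

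6-OHDA in wild-type cells lowered the transcripts of most Robo receptors, of the srGAPs and of EPHA5, the most abundant EphA receptor. It raised EFNB2, the most abundant of the ephrins analysed. ROBO1, ROBO2 and ROBO3, all 3 srGAPs, SLIT1, EPHA5, EPHA3 and EPHB2 fell. EFNB2, EFNA3, EFNA4, EPHA1, EPHA7, EPHB1 and SLIT2 rose. These 17 members are 63% of the 27 tested, against 52% of all tested genes called in either direction (25.8% higher, 26.2% lower), so the share is close to that of the whole transcriptome. The members' median log2 change was -0.02, against 0.07 over all genes. The treated and untreated libraries did not overlap for 14 of the 27 members, and for 45% of all genes.

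Among the Robo receptors, which carry the Slit signal into the growth cone, ROBO1 (chr3:78597240-79767815, minus strand, GRCh38) had 418, 412, 416 and 374 CPM in 6-OHDA-treated wild-type cells, against 1055, 1143, 1155 and 1099 CPM in untreated wild-type cells. ROBO2 (chr3:75906695-77649964, plus strand) had 490, 446, 488 and 492 CPM in the treated libraries, against 1567, 1516, 1668 and 1664 CPM in the untreated ones. For both receptors every treated library lay far below every untreated one. The log2 changes were -1.46 (SE 0.09, adjusted p = 6.517e-11) for ROBO1 and -1.74 (SE 0.14, adjusted p = 1.245e-09) for ROBO2. ROBO3, which promotes midline crossing of commissural axons in the mouse, changed less, by -0.62 (SE 0.17, adjusted p = 0.003745), with 16.9 to 23.7 CPM in treated against 28.4 to 37.03 CPM in untreated cells. ROBO4, the receptor of blood vessel endothelium, lay at 0.93 to 2.72 CPM in treated and 0.37 to 1.28 CPM in untreated cells and did not pass the test.

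The srGAPs fell together with the receptors they bind. SRGAP1 (chr12:63844293-64162221, plus strand) had 50.1, 47.2, 48.4 and 39.8 CPM in 6-OHDA-treated wild-type cells, against 162, 158, 174 and 174 CPM in untreated wild-type cells, a log2 change of -1.84 (SE 0.11, adjusted p = 2.497e-11). SRGAP3 (chr3:8980591-9363053, minus strand), abundant in developing brain, had 203, 194, 222 and 204 CPM in treated cells, against 532, 454, 499 and 476 CPM in untreated cells, a log2 change of -1.25 (SE 0.11, adjusted p = 4.361e-09). The treated and untreated libraries did not overlap for either gene. SRGAP2, which restrains the migration of cortical neurons in mice, changed by -0.66 (SE 0.09, adjusted p = 3.696e-06). Of its 31-base words 24.9% also occur in other genes, mostly its human-specific partial copies, and the change was -0.72 when their counts were summed with it.

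The Slit ligands did not move as 1 group. SLIT1 (chr10:96998038-97185920, minus strand), the predominantly neural Slit, had 44.7, 41.4, 55.3 and 30.3 CPM in 6-OHDA-treated wild-type cells, against 64.0, 69.1, 65.8 and 78.1 CPM in untreated wild-type cells. Its treated libraries were all lower, with a log2 change of -0.68 (SE 0.21, adjusted p = 0.009882). SLIT2 rose by 0.47 (SE 0.16, adjusted p = 0.01749), with overlapping libraries, a call that was lost without any of 3 single libraries or without the filter on low counts. SLIT3 had 2.72 to 6.85 CPM in treated and 3.89 to 4.57 CPM in untreated cells and was not called.

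Of 8 EphA receptors tested, 2 fell and 2 rose. EPHA5 (chr4:65319563-65670495, minus strand), a receptor of ephrin-A ligands in axon mapping, had 47.2, 48.1, 46.0 and 42.3 CPM in 6-OHDA-treated wild-type cells, against 242, 208, 220 and 256 CPM in untreated wild-type cells. That was the largest fall among the members, a log2 change of -2.33 (SE 0.17, adjusted p = 3.363e-10). EPHA3, which prefers ephrin-A5, had 5.20, 8.17, 5.58 and 2.49 CPM in treated cells, against 17.0, 21.0, 11.2 and 14.9 CPM in untreated cells, without overlap and with a log2 change of -1.54 (SE 0.29, adjusted p = 0.0001127). EPHA7, known in mice for cortical and retinal mapping, went the other way at a low level, with 5.65, 3.93, 5.58 and 5.97 CPM in treated cells, against 1.14, 3.83, 2.24 and 2.27 CPM in untreated cells. Its log2 change was 1.16 (SE 0.43, adjusted p = 0.02706), and the call was lost when any of 6 single libraries was left out. EPHA1, at under 3 CPM in every library of these groups, rose by 0.86 (SE 0.29, adjusted p = 0.01699). EPHA2, EPHA4, EPHA6 and EPHA10 did not pass the test. EPHA2 had the widest error of them, with a log2 change of 2.29 (SE 0.96, adjusted p = 0.05052) and 0 counts in 1 library of each group.

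EPHB2 and EFNB2, a receptor and a ligand that bind each other, changed in opposite directions. Both were added to the genes shown by library after their values had been seen. EFNB2 (chr13:106489731-106535662, minus strand), a transmembrane ligand that can also signal into its own cell, had 607, 629, 579 and 551 CPM in 6-OHDA-treated wild-type cells, against 343, 434, 345 and 386 CPM in untreated wild-type cells. Every treated library was higher, and the log2 change was 0.65 (SE 0.09, adjusted p = 1.797e-06). EPHB2 (chr1:22710839-22921500, plus strand), a receptor of axon guidance and of excitatory synapses, had 295, 290, 308 and 273 CPM in treated cells, against 384, 475, 373 and 368 CPM in untreated cells. Its log2 change was -0.45 (SE 0.10, adjusted p = 0.0008257), again without overlap. Per kilobase, the level of EFNB2 was 5.06 ± 0.298 times that of EPHB2 in treated and 2.36 ± 0.177 times in untreated wild-type cells (SD, n = 4 each). EPHB1 rose by 1.01 (SE 0.25, adjusted p = 0.00201) at 3.33 to 4.48 CPM in treated against 1.19 to 2.94 CPM in untreated cells. EPHB3 and EPHB4, the receptor that pairs with EFNB2 in blood vessels, were not called. Of the EFNB2 words 23.4% are shared with an antisense transcript, and reads of the 2 cannot be told apart if strand was not used.

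Among the lipid-anchored ephrin-A ligands 2 of 4 were called, both from few counts. EFNA4 had 7.68, 9.07, 3.72 and 0 CPM in 6-OHDA-treated wild-type cells, against 0.98, 0, 4.11 and 2.16 CPM in untreated wild-type cells. The libraries overlapped, and the log2 change of 1.67 (SE 0.62, adjusted p = 0.02934) was lost under 6 of 14 other settings. EFNA3 rose by 1.23 (SE 0.49, adjusted p = 0.03858), a call lost under 7 of 12 settings. Of the EFNA3 words 43.2% and of the EFNA4 words 12.3% also belong to a readthrough transcript of both genes, so the split of their counts is uncertain. EFNA5, the most abundant of these ligands, had 24.4 to 32.1 CPM in treated and 29.7 to 36.9 CPM in untreated cells, a log2 change of -0.17 (SE 0.15, adjusted p = 0.352). In wild-type cells 12 calls were kept under every setting in which the gene was tested. They were those of ROBO1, ROBO2, ROBO3, SLIT1, the 3 srGAPs, EPHA3, EPHA5, EPHB1, EPHB2 and EFNB2. EPHB1 was tested under 13 settings and ROBO1 under 14.

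**Figure D2:**
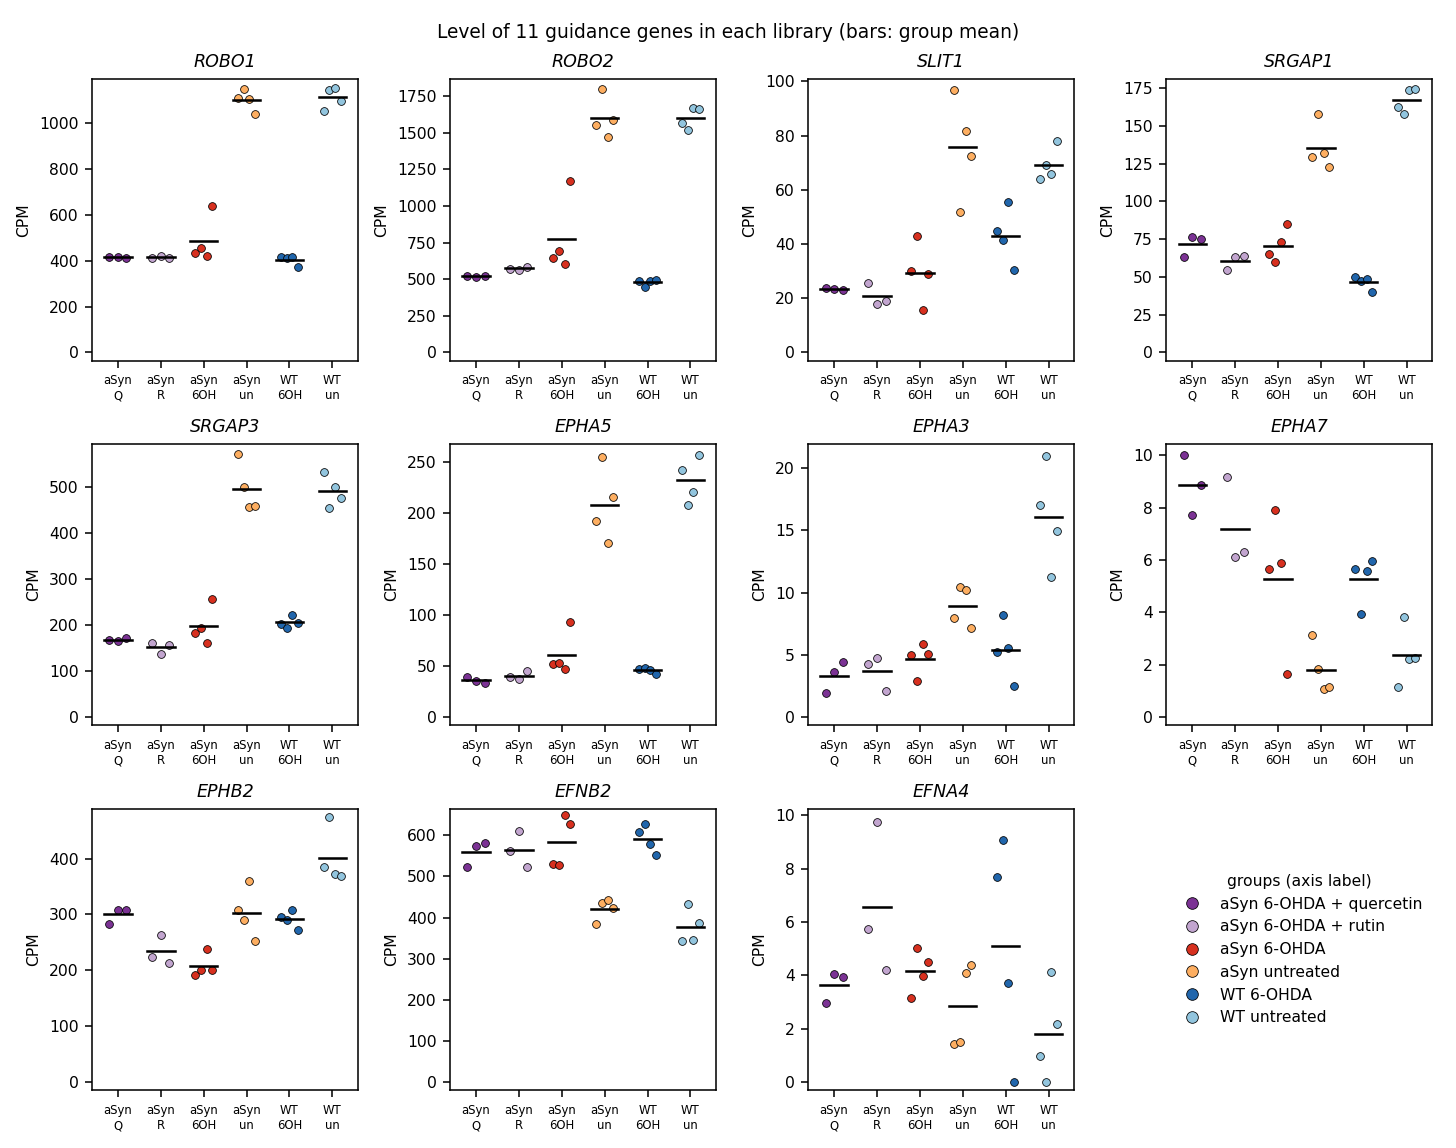
CPM on TMM-scaled libraries (linear axes) of 11 guidance genes, 1 point for each of the 22 libraries and a bar at the group mean; 6OH is 6-OHDA, un is untreated, and Q and R are quercetin and rutin given with 6-OHDA. ROBO1, ROBO2, SRGAP1, SRGAP3 and EPHA5 are far lower in the 6-OHDA groups and EFNB2 is higher, and 1 library of the 6-OHDA-treated alpha-synuclein cells lies above its group for EPHA5, ROBO1 and ROBO2.

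In alpha-synuclein cells 6-OHDA again lowered ROBO1, ROBO2, ROBO3, SLIT1, the 3 srGAPs, EPHA3, EPHA5 and EPHB2, and again raised EFNB2, EPHA1, EPHA7, EPHB1 and SLIT2. EPHB3 and EFNA5 also fell, and EPHA2 and EFNA1 also rose, while EFNA3 and EFNA4 were not called. The 19 called members are 70.4% of those tested, against 47.1% of all genes (22.9% higher, 24.2% lower). The median log2 change was 0.21 over the members and 0.05 over all genes, and the libraries did not overlap for 15 of the 27 members and 39.1% of all genes. Without replicate 4 of the treated cells 18 members were called, 7 higher and 11 lower, against 51.9% of all genes. EFNA1 and EPHB3 were then not called, and ROBO4 was (log2 change 1.04, adjusted p = 0.03946, against 0.59, adjusted p = 0.2826, with all libraries).

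ROBO1 had 435, 455, 422 and 639 CPM in 6-OHDA-treated alpha-synuclein cells, against 1110, 1151, 1108 and 1042 CPM in untreated alpha-synuclein cells. ROBO2 had 643, 694, 602 and 1172 CPM in the treated libraries, against 1551, 1801, 1475 and 1589 CPM in the untreated ones. All treated libraries were lower, replicate 4 by the least. The log2 changes were -1.17 (SE 0.09, adjusted p = 2.071e-09) for ROBO1 and -1.04 (SE 0.14, adjusted p = 1.933e-06) for ROBO2, and -1.33 and -1.31 without replicate 4. ROBO3 changed by -0.65 (SE 0.16, adjusted p = 0.002349), and by -0.78 without replicate 4.

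SRGAP1 had 65.0, 59.6, 73.1 and 85.3 CPM in 6-OHDA-treated alpha-synuclein cells, against 129, 158, 132 and 122.9 CPM in untreated alpha-synuclein cells, a log2 change of -0.92 (SE 0.10, adjusted p = 3.025e-07). SRGAP3 had 183, 193, 162 and 258 CPM in treated cells, against 572, 499, 456 and 458 CPM in untreated cells, a log2 change of -1.31 (SE 0.11, adjusted p = 3.325e-09). Without replicate 4, the highest treated library for both genes, the changes were -1.03 for SRGAP1 and -1.47 for SRGAP3. The srGAP libraries did not overlap, SRGAP2 included (log2 change -0.51, adjusted p = 8.19e-05). SLIT1 had 29.9, 43.1, 15.7 and 29.1 CPM in treated cells, against 96.9, 51.8, 81.7 and 72.5 CPM in untreated cells, and its change of -1.38 (SE 0.21, adjusted p = 1.409e-05) came without overlap though with wide scatter. SLIT2 was called at an adjusted p of 0.04998 and lost that call under 13 of 15 other settings, while without replicate 4 of the treated cells its log2 change was 0.55 (adjusted p = 0.0016) against 0.37 with it.

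EPHA5 had 51.7, 52.8, 47.5 and 92.9 CPM in 6-OHDA-treated alpha-synuclein cells, against 192, 254, 170 and 215 CPM in untreated alpha-synuclein cells. The log2 change was -1.73 (SE 0.16, adjusted p = 1.673e-08) and -2.04 without replicate 4, the highest treated library. EPHA3 had 4.98, 2.87, 5.87 and 5.05 CPM in treated cells, against 8.00, 10.47, 10.2 and 7.14 CPM in untreated cells, a log2 change of -0.89 (SE 0.27, adjusted p = 0.01022). EPHA7 had 5.65, 7.90, 5.87 and 1.65 CPM in treated cells, against 3.14, 1.86, 1.06 and 1.14 CPM in untreated cells. Its replicate 4 was within the untreated range, and the fitted level was 2.83 times that of untreated cells (adjusted p = 0.004532), with a log2 change of 1.93 without that library. EPHA1 rose by 1.17 (SE 0.27, adjusted p = 0.001092), and by 1.33 without replicate 4. EPHA2, better known from epithelia, had at most 2.15 CPM in any of these libraries. Its log2 change of 2.51 (SE 1.01, adjusted p = 0.04663) was lost under 7 of 13 settings, and was 3.24 (adjusted p = 0.002221) without replicate 4.

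EFNB2 had 531, 527, 649 and 627 CPM in 6-OHDA-treated alpha-synuclein cells, against 384, 435, 443 and 423 CPM in untreated alpha-synuclein cells, a log2 change of 0.47 (SE 0.09, adjusted p = 0.0001204). EPHB2 had 192, 200, 239 and 201 CPM in treated cells, against 308, 290, 359 and 253 CPM in untreated cells, a log2 change of -0.54 (SE 0.10, adjusted p = 0.0001808). The opposite movement of ligand and receptor was thus present in both genotypes, and per kilobase EFNB2 stood at 7.00 ± 0.529 times EPHB2 in treated and 3.52 ± 0.528 times in untreated alpha-synuclein cells (SD, n = 4 each). EPHB1 rose by 0.93 (SE 0.23, adjusted p = 0.001887), and by 1.08 without replicate 4 of the treated cells. EPHB3 had few counts, with 0.17 to 0.57 CPM in the treated libraries against 0.86 to 2.0 CPM in the untreated ones, and its call (adjusted p = 0.04447) was lost under 6 of 13 settings. EFNA5 changed by -0.52 (SE 0.14, adjusted p = 0.004341). EFNA1 changed by 0.97 (SE 0.39, adjusted p = 0.04326), a call lost under 7 of 15 settings.

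**Figure D3:**
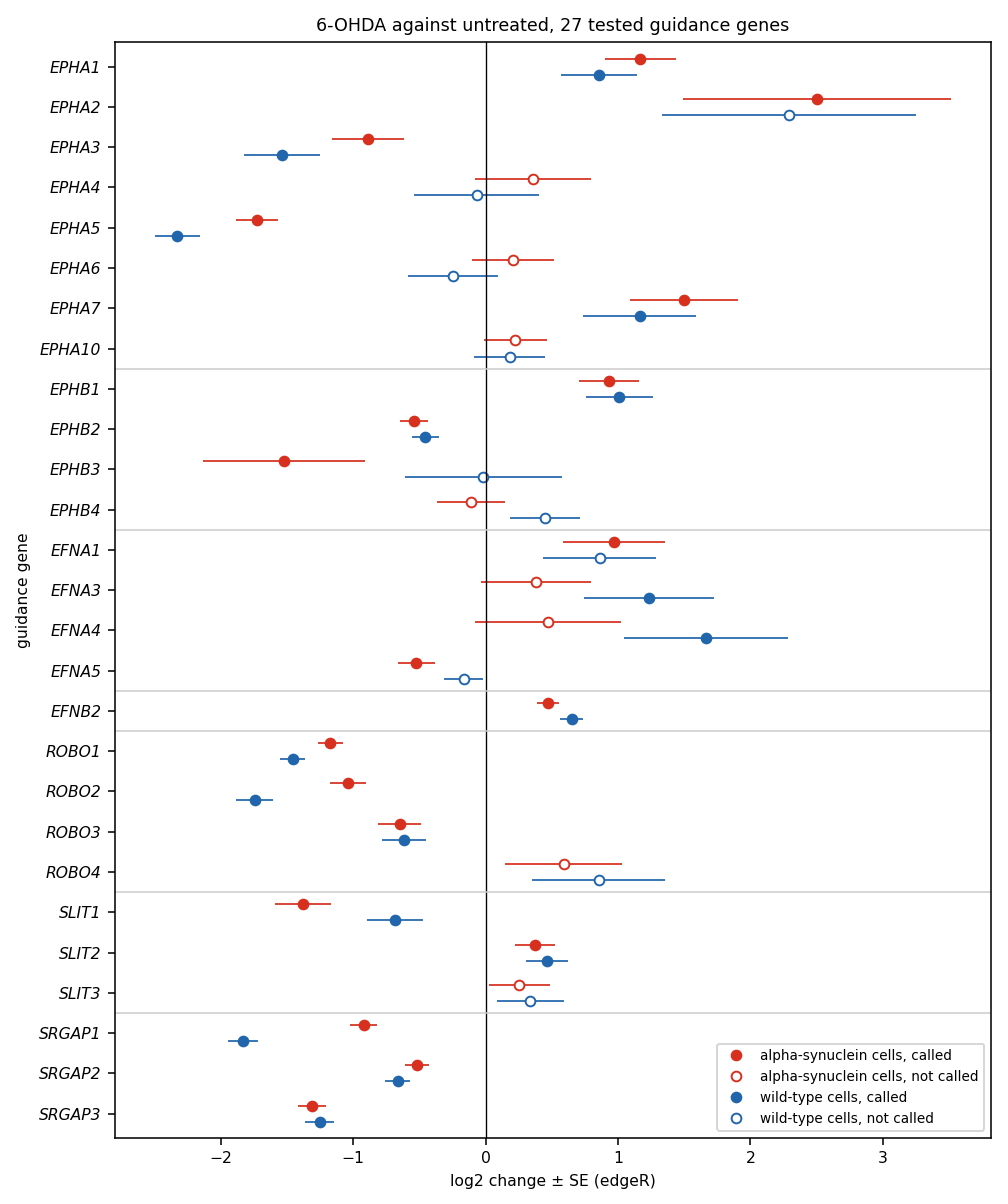
Log2 change with 6-OHDA of the 27 tested guidance genes (points, edgeR) with its SE (lines), alpha-synuclein cells above wild-type cells in each row, filled where the adjusted p was under 0.05. The Robo receptors ROBO1 to ROBO3, SLIT1 and the srGAPs lie left of 0 in both genotypes, EFNB2 lies right of 0 in both, and the wide lines belong to genes of few counts such as EPHA2 and EPHB3.

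Alpha-synuclein without 6-OHDA moved no member past the threshold. The count was 0 of 27 with edgeR, against 0.651% of all genes (0.373% higher, 0.277% lower). DESeq2 called 1, EPHB2, against 1.39% of all genes. EPHB2 had 308, 290, 359 and 253 CPM in untreated alpha-synuclein cells, against 384, 475, 373 and 368 CPM in untreated wild-type cells, a log2 change of -0.40 (SE 0.10, adjusted p = 0.0722). The libraries of the 2 genotypes did not overlap for 4 of the 27 members and 5.34% of all genes. Those members were EPHB2, EPHA3 (log2 change -0.83, adjusted p = 0.1648), SRGAP1 (-0.30, adjusted p = 0.2392) and SRGAP2 (-0.27, adjusted p = 0.2208), all lower in alpha-synuclein cells. ROBO1 and ROBO2 overlapped, and averaged 1103 ± 45.1 and 1604 ± 139.7 CPM in alpha-synuclein cells and 1113 ± 45.5 and 1604 ± 74.8 CPM in wild-type cells (SD, n = 4 each).

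With 6-OHDA present in both genotypes, 5 members differed between them, or 18.5%, against 27.3% of all genes (14.4% higher, 12.9% lower). ROBO2 (log2 change 0.70, SE 0.14, adjusted p = 0.0007194), SRGAP1 (0.61, SE 0.11, adjusted p = 0.0005017) and ROBO1 (0.27, SE 0.09, adjusted p = 0.03489) were higher in alpha-synuclein cells. EPHB2 (-0.49, SE 0.10, adjusted p = 0.001444) and EFNA5 (-0.43, SE 0.15, adjusted p = 0.03665) were lower. ROBO2 had 643, 694, 602 and 1172 CPM in treated alpha-synuclein cells, against 490, 446, 488 and 492 CPM in treated wild-type cells, and the groups did not overlap with or without replicate 4. Such separation held for 4 of the 27 members and 24.1% of all genes. Leaving that library out gave 0.43 (adjusted p = 0.000172) for ROBO2 and 0.49 (adjusted p = 0.002508) for SRGAP1. Without it ROBO1 (0.11, adjusted p = 0.1402) and EFNA5 (adjusted p = 0.05769) were no longer called, and ROBO3 was (-0.57, adjusted p = 0.02964), which gave 4 members against 24.7% of all genes.

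The interaction of genotype and 6-OHDA, which compares the 6-OHDA response in alpha-synuclein cells with that in wild-type cells, was called for 2 members, 7.41%, against 21.6% of all genes (11.2% higher, 10.5% lower). SRGAP1 fell less in alpha-synuclein cells (interaction 0.91, SE 0.15, adjusted p = 0.0006639), with 70.7 ± 11.2 CPM in 6-OHDA-treated and 135 ± 15.3 CPM in untreated alpha-synuclein cells, and 46.4 ± 4.54 CPM in 6-OHDA-treated and 167 ± 8.23 CPM in untreated wild-type cells (SD, n = 4 each). ROBO2 fell less too (interaction 0.70, SE 0.19, adjusted p = 0.01117). Without replicate 4 the values were 0.80 (adjusted p = 0.0007734) for SRGAP1 and 0.43 (adjusted p = 0.001861) for ROBO2. The ROBO2 call was lost (adjusted p = 0.06783) without the 2 untreated alpha-synuclein libraries whose names carry several barcode numbers. For EPHA5 the interaction was 0.60 (SE 0.23, adjusted p = 0.06524) and for EFNB2 -0.18 (SE 0.12), neither past the threshold. The EPHA5 interaction was called with DESeq2 (0.59, adjusted p = 0.03699) and with edgeR without the low-count filter (0.64, adjusted p = 0.03722). It was also called without some single libraries, among them replicate 1, 2 or 3 of the 6-OHDA-treated alpha-synuclein cells. Without replicate 4 of those cells the 2 calls were SRGAP1 and ROBO2. Because the comparisons of this paragraph and of the 4 before it share control libraries, their calls are not independent.

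Quercetin and rutin are plant flavonols, rutin being quercetin with a disaccharide attached, and each was given to 6-OHDA-treated alpha-synuclein cells. With quercetin 3 members were called, 11.1%, against 2.53% of all genes (0.56% higher, 1.97% lower). EPHA5 had 39.8, 35.2 and 33.7 CPM in quercetin-treated cells, against 51.7, 52.8, 47.5 and 92.9 CPM in cells with 6-OHDA alone, a log2 change of -0.80 (SE 0.18, adjusted p = 0.02373). ROBO2 had 520, 514 and 523 CPM with quercetin, against 643, 694, 602 and 1172 CPM without, a log2 change of -0.59 (SE 0.15, adjusted p = 0.0361). EPHB2 had 284, 307 and 309 CPM with quercetin, against 192, 200, 239 and 201 CPM without, a log2 change of 0.53 (SE 0.11, adjusted p = 0.01696). For all 3 genes the libraries with quercetin stood clear of those without, as they did for 6 of the 27 members and 13.5% of all genes. EPHA5 and ROBO2, which 6-OHDA had lowered, were lower still with quercetin, and EPHB2, which 6-OHDA had also lowered, was higher. The 6-OHDA change and the quercetin change share the 4 libraries with 6-OHDA alone, so they are not independent. Scatter in those libraries moves the 2 changes in opposite directions.

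The sizes of the EPHA5 and ROBO2 changes with quercetin rest in part on replicate 4 of the cells with 6-OHDA alone. For EPHB2 that library lay within the range of the others, and the change was of similar size without it. Without it ROBO2 was the 1 member called (log2 change -0.32, adjusted p = 0.04237), and EPHA5 (-0.49, adjusted p = 0.08788) and EPHB2 (0.51, adjusted p = 0.05096) were not, against 0.511% of all genes. The count of members was 0 without quercetin replicate 2 or quercetin replicate 3. It was also 0, with 2 of all genes, when only the groups compared were fitted, and DESeq2 called 4 members, against 5.84% of all genes.

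Rutin moved no member past the threshold, and no gene of the whole table was called (0%). DESeq2 called 3 members (EPHA5, ROBO2 and SRGAP3, all lower with rutin), against 1.72% of all genes. EPHA5 had 39.1, 37.8 and 45.1 CPM with rutin, against 51.7, 52.8, 47.5 and 92.9 CPM with 6-OHDA alone, a log2 change of -0.64 (SE 0.18, adjusted p = 0.1899), and ROBO2 had 572, 564 and 584 CPM with rutin, a change of -0.44 (SE 0.15, adjusted p = 0.2589). For both genes the rutin libraries lay below those with 6-OHDA alone, a separation found for 3 of the 27 members and 8.7% of all genes. Without replicate 4 of the cells with 6-OHDA alone the changes were -0.33 (adjusted p = 0.4584) for EPHA5 and -0.17 (adjusted p = 0.4669) for ROBO2.

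Set directly against each other, quercetin and rutin differed in 0 of the 27 members with edgeR, against 0.00602% of all genes (0% higher, 0.00602% lower). DESeq2 called 0 members, against 0.699% of all genes. This is the only pair of compounds, the labels give no doses for them, and both were set against the same 4 libraries with 6-OHDA alone. EPHB2 had 284, 307 and 309 CPM with quercetin against 225, 263 and 213 CPM with rutin, a log2 difference of 0.36 (95% interval 0.11 to 0.60, adjusted p = 0.3403). The libraries did not overlap for EPHB2, as for 7 of the 27 members and 21.7% of all genes. For EPHA5 the difference was -0.16 (95% interval -0.56 to 0.24), for ROBO2 -0.14 (-0.47 to 0.18), for ROBO1 0.00 (-0.22 to 0.22) and for EFNB2 -0.02 (-0.22 to 0.19). For ROBO1 and EFNB2 a log2 difference beyond 0.22 in either direction lies outside the interval, while the wider interval of EPHA5 reaches to -0.56.

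**Figure D4:**
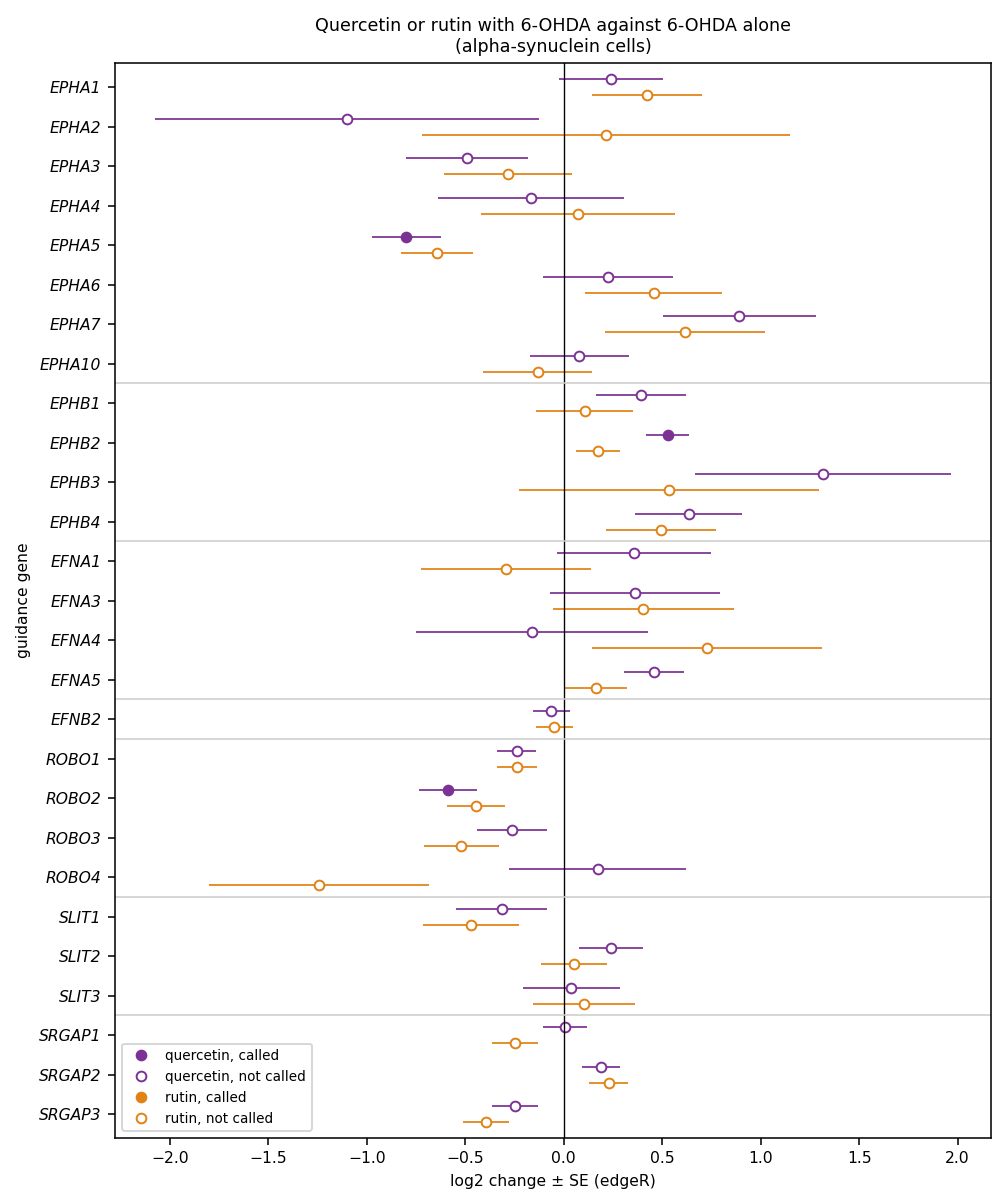
Log2 change of the 27 tested guidance genes with quercetin (upper point of each row) or rutin (lower point) in 6-OHDA-treated alpha-synuclein cells against 6-OHDA alone (edgeR, lines are SEs), filled where the adjusted p was under 0.05. EPHA5, ROBO2 and EPHB2 are filled for quercetin and no gene is filled for rutin.

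The proteins that act beside these receptors were described through 2 lists. Of 26 Eph and ephrin partners (kinases, guanine nucleotide exchange factors, adaptors and proteases) 25 were tested. With 6-OHDA 1 was higher and 13 were lower in wild-type cells, with a median log2 change of -0.42 against 0.07 over all genes, and 1 was higher and 13 were lower in alpha-synuclein cells, with a median of -0.25 against 0.05. The called share was 56% of the list in both, against 52% and 47.1% of all genes. SIPA1L1, a Rap GTPase-activating protein that binds EphA4, changed by -1.72 (SE 0.13, adjusted p = 6.061e-10) in wild-type and -1.36 (SE 0.12, adjusted p = 1.152e-08) in alpha-synuclein cells. TIAM1, a Rac exchange factor, changed by -1.16 and -0.91, and the endocytic adaptor ITSN1 and the phosphatase PTPN11 fell by 1.11 and 1.07 on the log2 scale in wild-type cells. The exchange factor VAV2 and the kinase SRC fell by 1.00 and 0.90 in alpha-synuclein cells. Between genotypes in untreated cells 1 partner (4%, against 0.651% of all genes) was lower in alpha-synuclein cells, CHN2 (log2 change -0.80, SE 0.15, adjusted p = 0.007752). With 6-OHDA in both genotypes 6 were higher and 4 lower (40%, against 27.3% of all genes). The interaction was called for 4 upwards and 3 downwards (28%, against 21.6%), and 2 were lower with quercetin (8%, against 2.53%), KALRN (-0.39) and RGS3 (-0.28). Rutin, and quercetin against rutin, gave 0 calls with edgeR.

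Of 25 Slit and Robo partners 24 were tested. With 6-OHDA 6 were higher and 12 lower in wild-type cells (median -0.29), and 1 was higher and 12 were lower in alpha-synuclein cells (median -0.24). These are 75% and 54.2% of the list, against 52% and 47.1% of all genes. NELL2, a secreted ligand of ROBO3 in mice, averaged 41.6 CPM in 6-OHDA-treated against 256 CPM in untreated wild-type cells (log2 change -2.63, SE 0.15, adjusted p = 7.498e-12). It averaged 53.1 CPM in 6-OHDA-treated against 178 CPM in untreated alpha-synuclein cells (-1.71, SE 0.14, adjusted p = 2.36e-09). DCC, the netrin receptor whose signal Robo can silence, changed by -2.53 and -2.30, and SDC3, a heparan sulphate proteoglycan, by -1.73 and -1.78 in wild-type and alpha-synuclein cells. Cytoskeletal partners ENAH (wild-type cells, -1.14) and EVL (alpha-synuclein cells, -0.99) also fell. No partner was called between genotypes in untreated cells. With 6-OHDA in both, 5 were higher in alpha-synuclein cells, among them USP33, a deubiquitinase that binds ROBO1 (0.66, SE 0.10, adjusted p = 0.0001095), and 6 were lower (45.8% of the list in all, against 27.3% of all genes). The interaction was called for 6 upwards, NELL2 (0.92) and USP33 (0.77) among them, and 5 downwards, PLXNA1 (-0.46) among them (45.8%, against 21.6%). Quercetin, rutin and their difference gave 0 calls with edgeR.

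The members that fell with 6-OHDA were mostly long genes. ROBO2 spans 1740 kb, ROBO1 1170 kb, SRGAP3 382 kb, EPHA3 375 kb, EPHA5 351 kb and SRGAP1 318 kb, while EFNB2 spans 45.9 kb. Of the 10 tested members over 300 kb, these 6 fell in both genotypes and 2, EPHB1 and SLIT2, rose. Among all 695 protein-coding genes of that length, 46.8% were lower and 16.3% higher in wild-type cells, and 38.8% were lower and 19.0% higher in alpha-synuclein cells. ROBO3, at 16.1 kb, fell although it is short, and EPHB1, at 663 kb, rose although it is long. Across the 27 members Spearman's rho between gene span and log2 change with 6-OHDA was -0.60 in wild-type and -0.44 in alpha-synuclein cells. Across 14717 protein-coding genes it was -0.24 and -0.04. The direction was the opposite for alpha-synuclein in 6-OHDA-treated cells, with 0.48 across the members and 0.29 across all genes. Genes are not independent replicates and all of these points share the same libraries, so these are descriptions. The members that fell in wild-type cells were also the more abundant ones, with a median of 199 CPM in untreated wild-type cells against 1.95 CPM for those that rose, and what part span and level have in the changes was not tested.

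**Figure D5:**
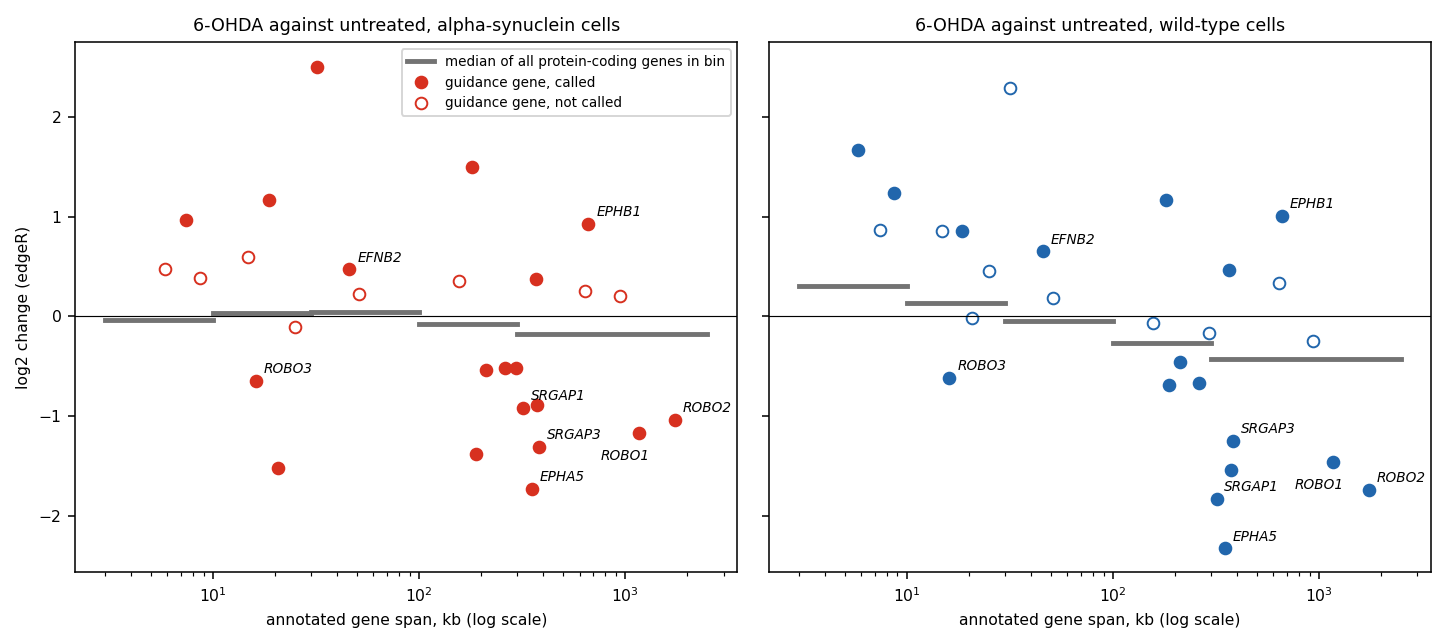
Log2 change with 6-OHDA (edgeR) against annotated gene span in kilobases (log scale) for the 27 tested guidance genes, alpha-synuclein cells on the left and wild-type cells on the right, filled where called. Grey bars give the median over all protein-coding genes in 5 bins of span, which falls to -0.42 for genes over 300 kb in wild-type cells and to -0.18 in alpha-synuclein cells, and ROBO1, ROBO2, EPHA5, SRGAP1 and SRGAP3 lie below it in both panels.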

How the data were processed

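RNA was sequenced from 22 LUHMES libraries in 6 groups. The deposited table holds estimated counts per gene for every library. Per the submitters' processing notes the tools include Trimmomatic 0.38 and kallisto 0.46.2 and the build is GRCh38 (hg38); strand use and the annotation release are not given in those notes. kallisto shares reads between similar transcripts, so members with copies or overlapping genes carry added uncertainty. All columns matched a sample. The level of the overexpressed gene is not reported here.

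The estimated counts were rounded and tested with edgeR 4.0.16 (R 4.3.3; quasi-likelihood F test, TMM scaling, 1 fit of all 22 libraries and 6 groups, no covariate). filterByExpr with a minimum count of 10 kept 16601 genes. Adjusted p-values (Benjamini-Hochberg) are over all of these, a gene was called under 0.05, and the SE is that of the log2 change. Intervals are 95% and, like the floor of 3 counts, cover no bias between libraries. Levels between genes used CPM per kilobase of merged GENCODE 29 exons.

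Alternatives were DESeq2 1.42.0, its size factors, no low-count filter, the replicate number as a block, a fit of only the groups compared, omitted libraries, SRGAP2 summed with its copies and, chosen after seeing the data, thinning to the smallest total. The fit was tested on simulated data first. Members and partner lists were chosen with earlier results of these data known. Values by library are given for members called in at least 1 comparison with an absolute log2 change of 1 or more and 5 CPM or more in a group (9 members), with 2 added after their values were seen. From each partner list up to 4 called genes with the smallest adjusted p were eligible to be named per comparison.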

Additional observations from a re-analysis of the deposited data

Results flagged for a closer look

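In 6 of the 44 groups of 4 libraries examined for the members shown by library, 1 library stood apart from the other 3 by Dixon's criterion. Chance alone meets this criterion in about 1 in 20 independent groups. The genes share the same libraries, so these groups are not independent and the 6 cannot be set against that rate. In 6-OHDA-treated alpha-synuclein cells this was replicate 4 for EPHA5 (92.92 CPM, the others 47.47 to 52.76), ROBO1 (639.3 CPM, the others 421.8 to 455.5) and ROBO2 (1172 CPM, the others 601.8 to 694.5). In 6-OHDA-treated wild-type cells it was replicate 4 for ROBO1 (374 CPM, the others 411.7 to 418.2) and replicate 2 for ROBO2 (445.5 CPM, the others 488.3 to 491.9). In untreated wild-type cells it was replicate 2 for EPHB2 (474.9 CPM, the others 367.9 to 384.4).

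The 6-OHDA response differed between alpha-synuclein and wild-type cells by an interaction of 0.7031 (log2) for ROBO2 and 0.9134 for SRGAP1, both called with edgeR, in a comparison where sequencing lane and group cannot be told apart.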

How the results depend on the processing

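No log2 change of a called member reversed under any alternative run. Of members called, DESeq2 gave 1 for alpha-synuclein in untreated cells (against 1.39% of all genes) and 3 for rutin (against 1.72%), where edgeR gave 0 for both. With the replicate number as a block, 3 members were called for alpha-synuclein in 6-OHDA-treated cells (5 without), against 25.3% of all genes (27.3% without). For quercetin 1 member was called (3 without), and 120 of all genes (420 without). The replicate numbers do not pair the libraries, since 0 of 51 same-numbered pairs had a correlation above 0.1. Fitting only the groups compared gave 3 members for alpha-synuclein in 6-OHDA-treated cells (against 27.1% of all genes) and 0 for quercetin (against 0.013%). Without the 2 untreated alpha-synuclein libraries with several barcode numbers the interaction kept 1 call, against 11.7% of all genes. Leaving out single libraries gave 12 to 16 members for 6-OHDA in wild-type cells (17 with all), 15 to 18 for 6-OHDA in alpha-synuclein cells (19), 0 to 1 for alpha-synuclein in untreated cells, 4 to 7 for alpha-synuclein in 6-OHDA-treated cells, 2 to 4 for the interaction (4 without untreated alpha-synuclein replicate 2, and without 6-OHDA-treated alpha-synuclein replicate 1, 2 or 3), 0 to 3 for quercetin and 0 for rutin and for quercetin against rutin. Apart from those stated earlier, shares of all genes are not given for these leave-one-out counts. A fall in members there cannot be told from a fall over all genes. Thinning every library to the smallest total, chosen after seeing the data, gave 13, 13, 0, 5, 2, 2, 0 and 0 members in the order of the comparisons above with quercetin, rutin and their difference last. In the same order, 50.5%, 41.1%, 0.49%, 28.7%, 20.7%, 1.59%, 0.0311% and 0% of all genes were called. Over all genes, the calls for quercetin were 420, with DESeq2 969, in its own groups 2 and thinned 204. For rutin they were 0, with DESeq2 285, with DESeq2 size factors 2, and 4 both unfiltered and thinned. For quercetin against rutin they were 1, in its own groups 19, unfiltered 8 and thinned 0, and with DESeq2 0.699% of the genes. For alpha-synuclein in untreated cells they were 108, with DESeq2 230, in its own groups 23, thinned 63 and without the 2 libraries 11. For the interaction they were 3594, and 1978 without the 2 libraries. The causes were not tested. The floor of 3 counts, 0.168 to 1.49 CPM across libraries, limits what can be read from members near it, such as EPHA2, EPHB3 and EFNA3.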
